A study of Mus musculus with 12 samples.

Results

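Quiescent CD8 T cells that had lost Scap in the T cell lineage were compared with control cells, 3 arrays against 3, chosen by the array titles from the 12 arrays of the series. The KO cells came from Cd4-Cre/Scapfl/fl mice and the control (WT) cells from their Cd4-Cre/Scap+/+ littermates, so both groups carried the Cre recombinase, which the Cd4 promoter drives in T lineage cells. All mice were male, and no age was given. The cells were purified from spleen with a CD8 T cell enrichment kit, and RNA was taken without stimulation (T0). The other 6 arrays held the same genotypes after 6 h of activation with antibodies to CD3 and CD28 (T6); they entered the fit as groups of their own, and their differences are given only beside those at T0.

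SCAP is the escort protein that carries the transcription factors SREBP1 and SREBP2 from the endoplasmic reticulum to the Golgi when membrane sterols are low. There 2 proteases release the active factors, which then switch on the genes of cholesterol synthesis, cholesterol uptake and fatty acid synthesis. INSIG proteins hold the SCAP and SREBP complex in the endoplasmic reticulum when sterols are plentiful. The comparison asks which genes differed between KO and WT cells before any stimulus.

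Of 45101 probe sets in the deposited table, 34945 carried 1 gene symbol and 24543 of these, for 13180 genes, were bright enough to be tested. All levels below are log2(signal + 16) and all differences are KO minus WT on that scale, which understates the change of dim genes. Array medians lay between 61.3 and 76.2 signal units over the 12 arrays. Arrays correlated at 0.969 to 0.979 within a T0 group (6 pairs) and at 0.958 to 0.976 between the T0 groups (9 pairs), across probe sets. The defining CD8 T cell gene Cd8a stood at 13.36 to 13.66 in WT and 13.26 to 13.52 in KO, and Cd4 stayed below the signal filter on the T0 arrays (4.77 to 5.10). For Actb, whose control probe sets cover both ends of the transcript, the 3' end exceeded the 5' end by 0.30 ± 0.08 in WT and 0.36 ± 0.14 in KO (SD, n = 3, two-sided exact permutation p = 0.6), and for Gapdh by 0.06 ± 0.03 and 0.15 ± 0.15 (exact p = 0.4).

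Few genes passed the test. With limma and Benjamini-Hochberg adjustment 4 of 24543 probe sets were called at an adjusted p under 0.05 (0.0163%), all lower in KO cells, and 0 were called higher (0.0%). At an unadjusted p under 0.05 there were 2341 (9.54%). On simulated data of the same size, with 200 changed probe sets among 24543, the test found 8% of probe sets shifted by 0.5 log2 units, 56% at a shift of 1 and 84% at a shift of 2, and made 2 false calls. The 200 were divided equally among shifts of 0.5, 1, 1.5 and 2. Noise was drawn independently for each probe set, so these rates do not cover variation that genes share across an array.

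**Figure D1:**
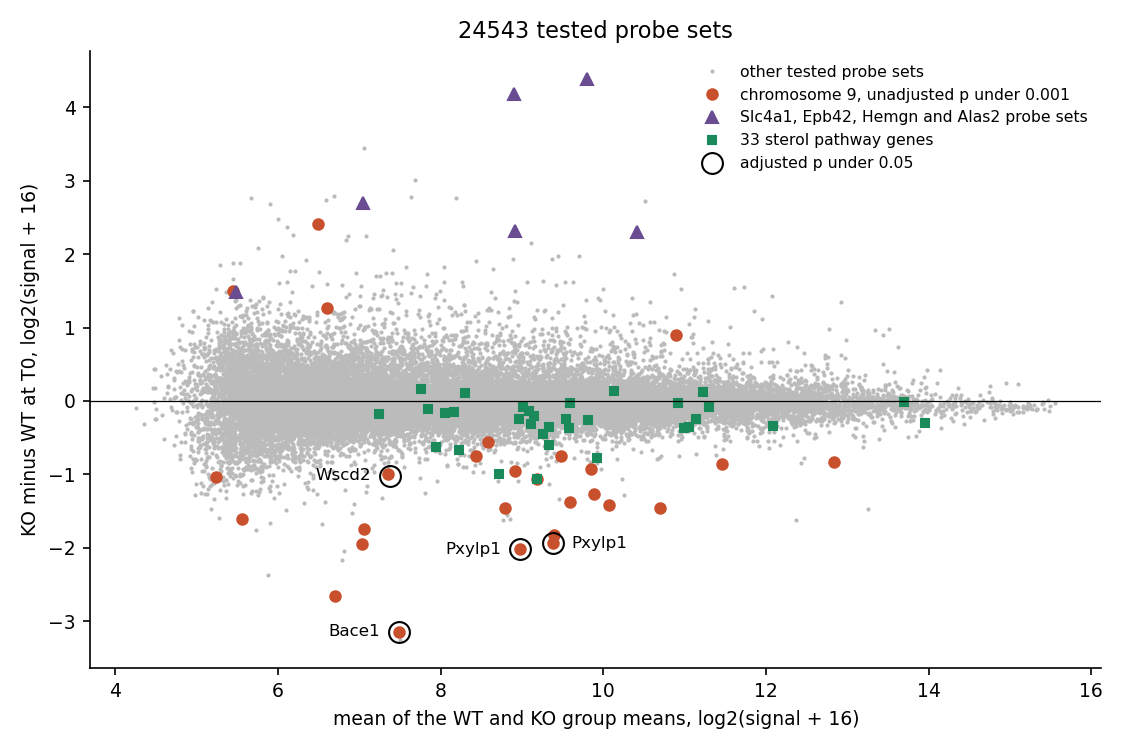
Difference between KO and WT cells at T0 (vertical axis, log2 units) against the mean level of the probe set (horizontal axis, log2 of signal + 16) for the 24543 tested probe sets. Rings mark the 4 called probe sets, of Bace1, Pxylp1 and Wscd2, all below 0; orange points are chromosome 9 probe sets with an unadjusted p under 0.001, 23 of 27 of them lower in KO, green squares are the 33 sterol pathway genes and violet triangles are probe sets of 4 erythroid genes.

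Bace1, which encodes the membrane protease known as beta-secretase, had the largest called fall. Its probe set stood at 9.24, 8.65 and 9.30 in the WT arrays and at 5.89, 6.03 and 5.83 in the KO arrays. The groups lay far apart, and the KO values were near percentile 40 of the arrays (5.64 to 5.87), the level used as the filter. The difference was -3.14 (SE 0.25, limma adjusted p = 0.00299). The other 3 Bace1 probe sets gave -1.16, -1.66 and -1.53, and none was called on its own. At T6 the difference of the called probe set was -1.05.

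Pxylp1, which encodes a phosphatase that removes phosphate from the xylose of proteoglycan linker sugars, fell on both of its tested probe sets. The brighter one stood at 10.33, 10.26 and 10.46 in WT and at 8.74, 8.01 and 8.50 in KO, a difference of -1.94 (SE 0.17, adjusted p = 0.00431). The other stood at 10.18, 9.73 and 10.05 in WT and at 8.41, 7.42 and 8.07 in KO, a difference of -2.02 (SE 0.23, adjusted p = 0.0300). KO replicate 2 was the lowest on both probe sets, and no KO array reached the WT range. At T6 the differences were -1.16 and -1.21.

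Wscd2, a gene named for its WSC domain, fell by 1.02 (SE 0.12, adjusted p = 0.0411). Its values were 7.85, 7.79 and 8.01 in WT and 6.81, 6.91 and 6.87 in KO, with little spread in either group. At T6 the difference was 0.13. The test of the change in the genotype difference from T0 to T6 (the interaction) gave 1.15 for Wscd2 and 2.09 for Bace1 (limma adjusted p = 0.473 for each). For the brighter and the other Pxylp1 probe set it gave 0.77 and 0.81 (adjusted p = 0.816 and 0.939). Over all probe sets the interaction called 0 with limma (0.0%), against 1296 at an unadjusted p under 0.05 (5.28%). The Wscd2 call was kept in 7 of 26 processing alternatives, against 23 of 25 for Bace1 and 22 of 25 and 13 of 24 for the Pxylp1 probe sets.

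Bace1 and Pxylp1 lie on chromosome 9, as Scap does. Among the 12 probe sets with the smallest p-values, 10 were on chromosome 9 and 11 were lower in KO; the 2 from elsewhere were those of Wscd2 and Insig1. The probe sets of chromosome 9 that missed the call by little (adjusted p = 0.0620) included that of Ppcdc, an enzyme of coenzyme A synthesis, at 7.98 to 8.12 in WT and at 5.59, 5.74 and 4.80 in KO, a difference of -2.66 (SE 0.34). Tmem108, a transmembrane protein gene, stood at 10.72, 9.89 and 10.32 in WT and at 8.83, 7.99 and 8.61 in KO, a difference of -1.83 (SE 0.24). Atm, the DNA damage kinase, stood at 10.97, 10.37 and 11.00 in WT and at 9.31, 9.30 and 9.46 in KO, a difference of -1.42 (SE 0.20). None of these KO values reached the WT range. Pik3r4, the regulatory subunit of the class III phosphatidylinositol 3-kinase, followed at -1.38 (SE 0.20, adjusted p = 0.0704).

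Other probe sets of several of these genes gave smaller differences. The brighter Ppcdc probe set differed by -0.44 and the brighter Atm probe set by -0.29. For Rcn2, a calcium-binding protein of the secretory pathway, a dim probe set differed by -1.95 and a bright one by 0.00. For Rbm15b, an RNA-binding protein gene, the probe set among the smallest p-values was near background and higher in KO (mean 6.20) than in WT (mean 4.70), while its brighter probe sets differed by 0.17 and -0.17. A single probe set therefore gave a size that the gene's other probe sets did not share.

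The share of chromosome 9 was measured over all probe sets. Of 1333 tested on chromosome 9, 209 (15.7%) had an unadjusted p under 0.05, against 9.19% over the rest and 7.28% to 11.4% on the 19 other chromosomes taken singly. With an unadjusted p under 0.001 there were 27 on chromosome 9, of which 23 were lower in KO, and 67 among the 23210 probe sets elsewhere, of which 34 were lower. A difference beyond 1 log2 unit was found for 4.13% of chromosome 9 probe sets and for 1.68% of the others. Probe sets of 1 gene and of neighbouring genes are not independent, so no test is attached to these shares. When chromosome 9 was left out, an alternative chosen after seeing the data, 0 probe sets were called by limma and 2134 had an unadjusted p under 0.05.

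**Figure D2:**
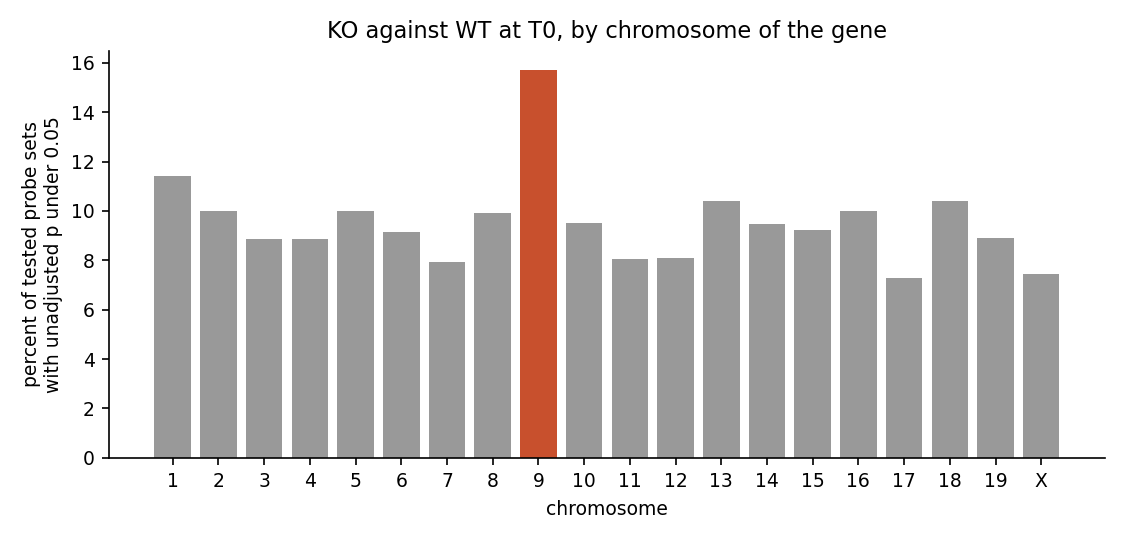
Percent of tested probe sets with an unadjusted limma p under 0.05 (vertical axis) for each chromosome (horizontal axis), KO against WT at T0. The bar of chromosome 9, in orange, stands at 15.7%, and the other 19 bars lie between 7.28% and 11.4%.

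Scap itself was not called. The brighter Scap probe set stood at 11.53, 11.03 and 11.23 in WT and at 11.27, 10.83 and 10.93 in KO, so the groups overlapped. The difference was -0.25 (SE 0.15, adjusted p = 0.610), and at T6 it was -0.47. The dimmer probe set stood at 6.71, 7.29 and 6.70 in WT and at 6.37, 6.92 and 7.05 in KO (-0.12, SE 0.21, adjusted p = 0.884). Which exons the floxed allele loses is not stated in the labels, and how the probes lie to them was not analysed here, so these probe sets do not check the genotype.

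The sterol pathway was followed through 4 lists with 39 genes. Of these, 33 matched a probe set with 1 gene symbol, and all 33 passed the signal filter. The others had no such match and were not analysed here. None of the 33 was called, against 3 of 13158 genes taken at 1 probe set each (0.0228%), and 12 had an unadjusted p under 0.05, all lower in KO (9.24% of all genes in either direction). The difference was negative for 29 of 33, against 50.0% of all genes. The KO and WT arrays did not overlap for 14 of 33, all lower, against 8.51% of all genes lower and 8.12% higher. The median difference was -0.25, against 0.00 over all genes tested. Averaged over the 33 genes, the level was 9.88, 9.81 and 9.79 on the WT arrays and 9.60, 9.52 and 9.52 on the KO arrays, so all KO arrays lay below all WT arrays. Without the 2 members on chromosome 9, Scap and Sc5d, 27 of 31 were negative and the median was again -0.25. With the B cell marker level of each array as a covariate the median of the 33 was -0.29, and with the erythroid marker level it was -0.18. At T6, on other arrays that may come from the same mice, 28 of 33 were negative with a median of -0.32. Over all genes tested 5643 of 13158 were negative at T6, with a median of 0.04.

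The members with the smallest p-values were Insig1, which encodes a retention protein of the SCAP complex and is a classical SREBP target, Sc5d, which encodes lathosterol oxidase, the desaturase near the end of cholesterol synthesis, and Hsd17b7, which encodes a 3-keto reductase that works on sterol intermediates. Their promoters are shown because these genes stood nearest to a call and moved the same way. Each run covers 250 bases before to 50 bases after the RefSeq start of the gene (GRCm38.p6, written 5′ to 3′ on the strand of the gene), with CCAAT on either strand (read as ATTGG on the other) in capitals. They come from chr5:28071162-28071461 on the plus strand for Insig1, chr9:42264251-42264550 on the minus strand for Sc5d and chr1:169969156-169969455 on the minus strand for Hsd17b7.
Insig1: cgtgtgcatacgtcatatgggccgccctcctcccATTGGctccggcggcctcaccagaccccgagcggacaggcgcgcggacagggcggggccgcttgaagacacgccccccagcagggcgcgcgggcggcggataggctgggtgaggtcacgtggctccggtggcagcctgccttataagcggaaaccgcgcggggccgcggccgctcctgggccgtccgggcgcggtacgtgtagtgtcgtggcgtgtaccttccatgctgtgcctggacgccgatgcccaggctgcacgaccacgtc
Sc5d: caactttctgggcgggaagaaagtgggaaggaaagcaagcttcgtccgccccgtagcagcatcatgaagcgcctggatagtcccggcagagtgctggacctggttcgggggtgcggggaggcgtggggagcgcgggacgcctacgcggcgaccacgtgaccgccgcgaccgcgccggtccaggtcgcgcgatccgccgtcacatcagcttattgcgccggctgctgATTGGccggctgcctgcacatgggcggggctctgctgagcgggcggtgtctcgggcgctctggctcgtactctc
Hsd17b7: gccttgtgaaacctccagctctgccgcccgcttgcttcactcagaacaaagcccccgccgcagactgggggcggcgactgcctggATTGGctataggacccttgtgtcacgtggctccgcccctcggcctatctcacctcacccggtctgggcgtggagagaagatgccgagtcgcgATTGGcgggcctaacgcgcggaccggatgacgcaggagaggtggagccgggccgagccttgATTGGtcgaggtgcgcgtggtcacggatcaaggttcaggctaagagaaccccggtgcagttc

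CCAAT is the motif of the factor NF-Y, known to work beside SREBPs at sterol gene promoters. It occurs once in the Insig1 window, starting 216 bases before the start of the gene, once in the Sc5d window, at 24 bases, and 3 times in the Hsd17b7 window, at 165, 73 and 12 bases. Of 32851 RefSeq promoters of that length 37.4% hold CCAAT on either strand, and 24 of the 28 sterol genes with a RefSeq promoter do. The letters TCACNCCAC, a form of the sterol regulatory element, were in 1.24% of all promoters, in 1 of the 28 and in none of the 3 shown; no other form was searched.

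In the group of 7 genes that carry out SREBP activation, 6 differences were negative and 3 genes lay lower without overlap (8.51% of all genes). Insig1 stood at 10.49, 10.22 and 10.24 in WT and at 9.55, 9.51 and 9.55 in KO. The KO arrays lay close to each other and all below WT. The difference was -0.78 (SE 0.11, adjusted p = 0.0620), and it was -1.15 at T6. Insig1 was called in 5 of 26 alternatives; with the mean B cell marker level as a covariate the difference was -0.84, and with the erythroid marker level it was -0.82.

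Srebf2, which encodes the SREBP that mainly serves cholesterol synthesis, stood at 9.71, 9.63 and 9.57 in WT and at 9.16, 8.81 and 9.15 in KO. The difference was -0.60 (SE 0.13, adjusted p = 0.255), but the dimmer Srebf2 probe set differed by 0.06. Srebf1, which encodes SREBP1, stood at 11.16, 11.18 and 11.18 in WT and at 10.93, 10.79 and 10.69 in KO, a difference of -0.37 (SE 0.11, adjusted p = 0.339). Neither gene passed the test, and in both the KO arrays lay below every WT array. The protease genes Mbtps1 and Mbtps2 differed by -0.08 and 0.13, and Insig2, the second retention protein, by -0.08, each with overlapping arrays.

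**Figure D3:**
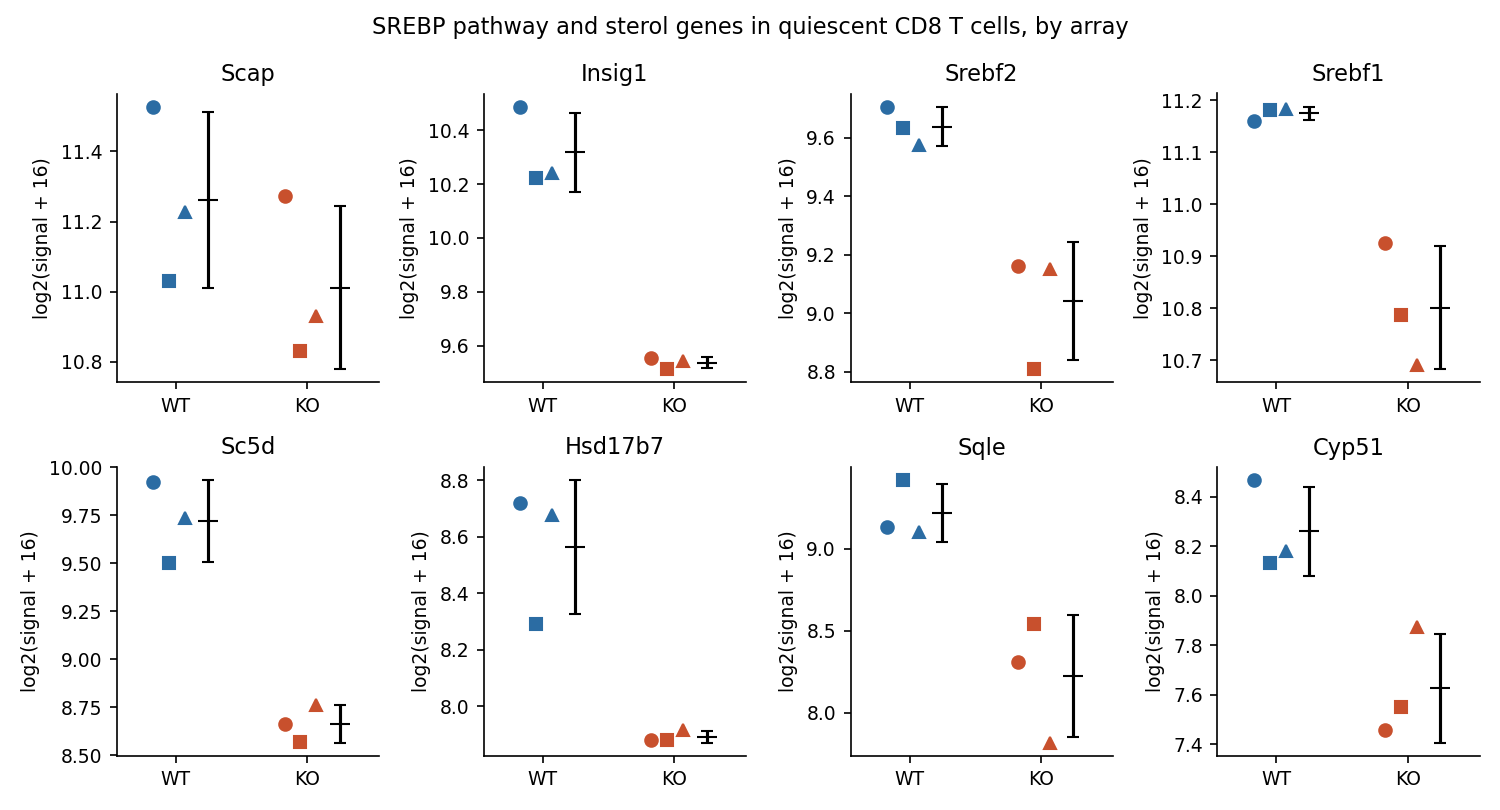
Level of 8 genes of the SREBP pathway and sterol synthesis on each T0 array (vertical axis, log2 of signal + 16; axes do not start at 0). Points are arrays, with replicate 1 as circles, 2 as squares and 3 as triangles, and bars are the mean and SD of 3 arrays; Scap overlapped between WT and KO, and in the other 7 genes every KO array lay below every WT array.

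In the mevalonate part of the pathway, from acetyl units to isoprenoids, 6 of 7 tested genes were negative. Of these, 2 lay lower without overlap (8.51% of all genes). Hmgcs1, the synthase that precedes the rate-limiting reductase, stood at 11.30, 11.24 and 11.15 in WT and at 10.90, 10.70 and 11.04 in KO. The difference was -0.35 (SE 0.12, adjusted p = 0.424) at T0 and -0.92 at T6. Idi1, the isomerase of isopentenyl diphosphate, differed by -0.37 at T0 (SE 0.21, adjusted p = 0.608) and by -1.43 at T6. The synthases Fdps and Ggps1 differed by -0.31 and -0.20, the decarboxylase Mvd by -0.15 and the kinases Mvk and Pmvk by -0.17 and 0.11. All 5 had overlapping arrays.

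The steps from squalene to cholesterol held the largest differences of the pathway. There 12 of 12 tested genes were negative and 6 lay lower without overlap (8.51% of all genes). Sc5d stood at 9.92, 9.50 and 9.73 in WT and at 8.66, 8.57 and 8.76 in KO, a difference of -1.06 (SE 0.15, adjusted p = 0.0620). Its dimmer probe sets differed by -0.39 and -0.03, and the gene lies on chromosome 9. Sqle, which encodes squalene epoxidase, a rate-controlling enzyme, stood at 9.13, 9.42 and 9.11 in WT and at 8.31, 8.54 and 7.82 in KO. The difference was -0.99 (SE 0.25, adjusted p = 0.282), and -1.30 at T6. With the erythroid marker level as a covariate the Sqle difference was -1.46.

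Hsd17b7 stood at 8.72, 8.29 and 8.68 in WT and at 7.88, 7.88 and 7.92 in KO. The difference was -0.67 (SE 0.13, adjusted p = 0.204), and 2 of its other probe sets gave -0.55 and -0.53. Cyp51, which encodes lanosterol demethylase, stood at 8.47, 8.13 and 8.18 in WT and at 7.46, 7.55 and 7.87 in KO. All KO arrays lay below WT, by -0.63 on average (SE 0.18, adjusted p = 0.341), and the second probe set gave -0.55. At T6 the Cyp51 difference was -1.75, with an interaction of -1.12 that did not pass the test (adjusted p = 0.596).

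Msmo1, the methyl sterol oxidase, differed by -0.45 (SE 0.15, adjusted p = 0.404) and Fdft1, squalene synthase, by -0.25, both without overlap. Dhcr7, the last reductase of the pathway, differed by -0.27 with overlap. Lss, lanosterol synthase, differed by -0.16 on its brightest probe set and by -0.84 and -0.75 on the dimmer ones. Tm7sf2, Ebp, Nsdhl and Lbr, which act on the sterol rings after lanosterol, lay at -0.11, -0.03, -0.03 and -0.01. The direction of the last 3 turned in some alternatives.

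Among 7 tested genes of sterol uptake and trafficking 5 were negative and 3 lay lower without overlap (8.51% of all genes). Mylip, the ligase that marks the LDL receptor for breakdown, differed by -0.34, the lysosomal cholesterol carrier Npc2 by -0.30 and the cholesteryl ester hydrolase gene Nceh1 by -0.35 (0.32 at T6). Nceh1 gave 0.04 and -0.01 on its dimmer probe sets. Npc1 and the sterol carrier gene Stard4 differed by -0.25 and -0.14, and the lysosomal lipase gene Lipa by 0.12, all with overlap. Tmem97, the sigma-2 receptor, differed by 0.17 at T0 and by -0.65 at T6.

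**Figure D4:**
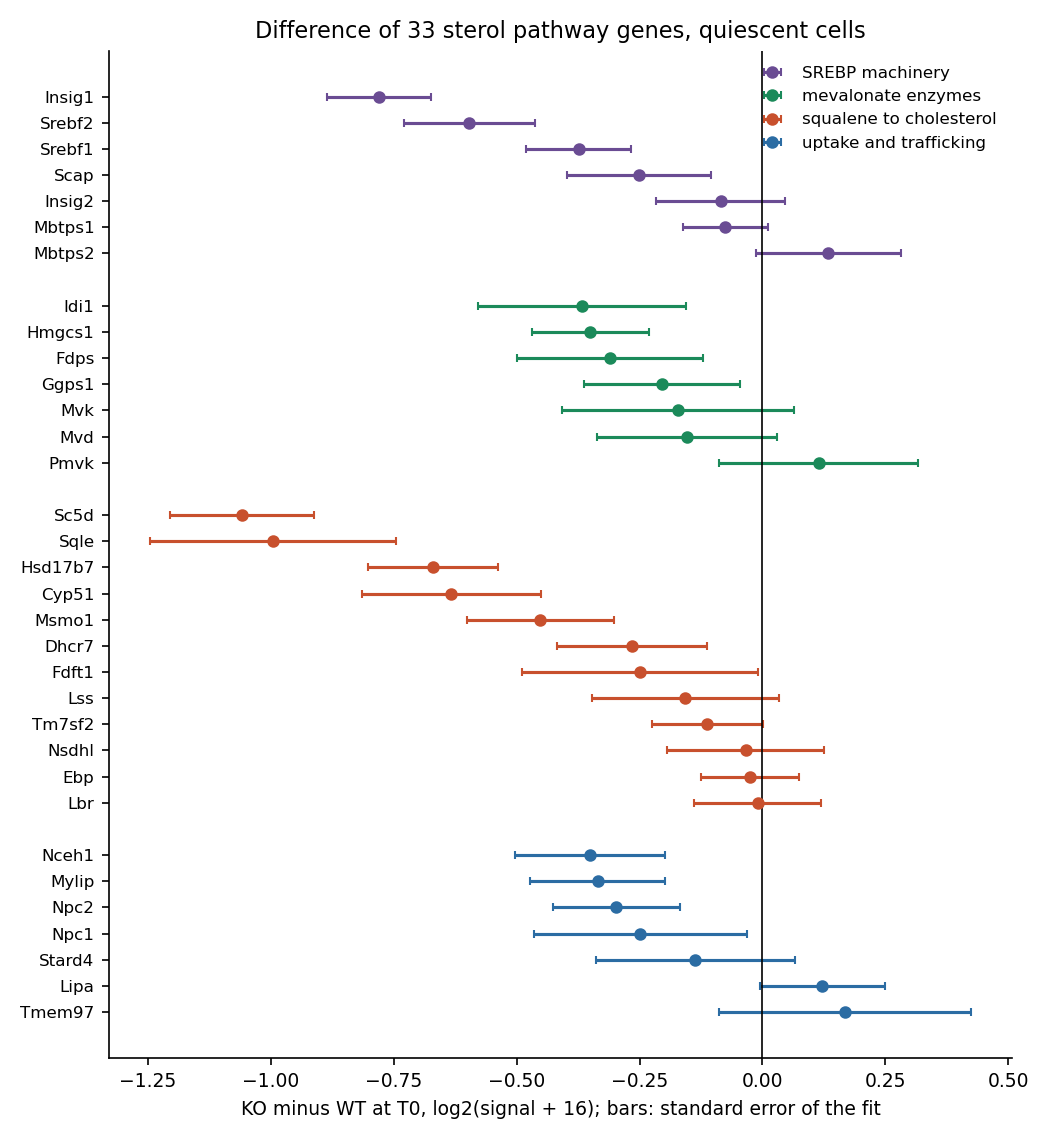
Difference between KO and WT cells at T0 (horizontal axis, log2 units) for the 33 sterol pathway genes, 1 probe set each, with bars of 1 standard error of the limma fit. Within the 4 colour groups genes run from the lowest to the highest difference; 29 of 33 points lie below 0, led by Sc5d (-1.06), Sqle (-0.99) and Insig1 (-0.78), and 0 were called.

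Of 17 tested fatty acid genes 11 were negative, 3 lay lower without overlap (8.51% of all genes) and the median was -0.10. The direction of the median rested on single arrays: without KO replicate 3 it was 0.0037 with 8 of 17 negative, without WT replicate 3 it was -0.03 and without KO replicate 1 it was -0.06. With the B cell covariate it was -0.03 and with the erythroid covariate -0.23. Acsl3, an acyl-CoA synthetase gene, stood at 7.62, 7.53 and 7.87 in WT and at 7.11, 7.31 and 6.86 in KO (-0.58, SE 0.19, adjusted p = 0.399). Its dimmer probe sets gave 0.58 and -0.51. Acaca, acetyl-CoA carboxylase, differed by -0.29 and Aacs, acetoacetyl-CoA synthetase, by -0.26, also without overlap. Fasn, fatty acid synthase, differed by -0.10 with overlap. The desaturase genes Scd1 and Scd2 went opposite ways. Scd2 differed by -0.41, while Scd1 stood at 8.07, 7.22 and 6.77 in WT and at 9.99, 8.16 and 8.03 in KO (1.37, SE 0.59, adjusted p = 0.507), highest on KO replicate 1. That array also had the highest mean of several marker lists, among them B cell, MHC class II and myeloid. A link between these and Scd1 was not tested.

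Of 16 genes of phospholipid and triglyceride synthesis 9 were negative, with a median of -0.10. That median was 0.00044, with 8 of 16 negative, without WT replicate 1 and -0.05 without KO replicate 2, and it was -0.19 with the B cell and -0.04 with the erythroid covariate. Chka, choline kinase, differed by -0.33, Pcyt2 of the ethanolamine branch by -0.23 and the acyltransferase gene Agpat4 by 0.31, each without overlap. Of 7 targets of LXR, the receptor that senses oxysterols, 3 were negative and the median was 0.04, with medians of -0.04 to 0.11 over the alternatives, below 0 without WT replicate 2 or KO replicate 3. The cholesterol exporters Abca1 and Abcg1 differed by -0.23 and -0.28. Apoe, which macrophages express strongly, stood at 10.04, 9.31 and 9.31 in WT and at 10.52, 10.19 and 10.09 in KO (0.71, SE 0.23, adjusted p = 0.400). None of these genes was called.

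Most markers of other cell types had positive differences, and none was called. In bulk samples such as these, more cells of a type and more RNA per cell cannot be told apart. All 10 tested erythroid genes were positive, with a median of 1.23 and 2 higher without overlap (8.12% of all genes). The mean of the 10 was 9.06, 9.76 and 9.98 on the WT arrays and 11.59, 12.50 and 10.08 on the KO arrays, and the summed signal ran from 10997 to 33230 in WT and from 22818 to 85016 in KO. KO replicate 3 lay close to WT replicate 3, so the list mean rested on KO replicates 1 and 2. Without KO replicate 2 the median was 0.71, and without WT replicate 1 it was 0.68; with the B cell covariate it was 1.99. Slc4a1, the red cell anion exchanger, had the largest difference of the list, with 8.13, 7.66 and 7.01 in WT and 12.31, 13.51 and 10.14 in KO (4.39, SE 0.96, adjusted p = 0.251). Epb42, a red cell membrane protein gene of the list, differed by 2.70. Tmcc2 and Dmtn, an actin-bundling protein gene of the red cell membrane, differed by 2.77 each. Tmcc2 and Dmtn were outside the list and were named only for being among the largest higher differences, so they are no separate evidence on erythroid markers. The brightest probe set assigned to Hba-a1 alone stayed below the filter (4.20 to 4.81 over both groups). Probe sets with several gene symbols were left out here, so this value does not show that globin RNA was absent.

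All 14 tested B cell genes were positive, with a median of 0.80, and 7 lay higher without overlap (8.12% of all genes). Their mean was 8.36, 7.73 and 7.44 in WT and 9.76, 8.19 and 8.62 in KO, with summed signals of 23541 to 38248 in WT and 31406 to 43701 in KO. KO replicate 1 was the highest, and without it the median was 0.47; with the erythroid covariate it was 1.26. Ms4a1, which encodes CD20, stood at 9.06, 7.80 and 7.24 in WT and at 11.67, 9.13 and 9.76 in KO (2.15, SE 0.77, adjusted p = 0.446). Cd79a of the B cell receptor differed by 1.52, the adaptor gene Blnk by 1.61 and Ly6d by 1.48. Outside the list, Spib, a B lineage and dendritic cell factor, differed by 1.82. Among immunoglobulin and plasma cell genes Ighg3 differed by 1.73 and Mzb1 by 1.62. Spib, Ighg3 and Mzb1 were named only for being among the largest higher differences, so they are no separate evidence on B cell markers. None of these was called.

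Of 17 myeloid genes 16 were positive and 9 lay higher without overlap (8.12% of all genes). The myeloid median was 0.52, with array means of 10.37, 9.91 and 10.10 in WT and 11.05, 10.54 and 10.39 in KO. Summed signals were 29610 to 38020 in WT and 40590 to 51327 in KO. Vcam1, an adhesion molecule of splenic macrophages, differed by 0.68, and the signalling adaptor genes Tyrobp and Fcer1g by 0.72 and 0.65. The dimmer Vcam1 probe sets gave 0.83 and -0.40. With the B cell covariate the myeloid median was 0.23. All 5 dendritic cell genes were positive (median 0.82, and 0.53 with the B cell covariate; summed signals of 580 to 890 in WT and 1083 to 1345 in KO). Siglech, a marker of plasmacytoid dendritic cells, stood at 7.40, 6.12 and 6.62 in WT and at 8.22, 7.96 and 8.31 in KO (1.45, SE 0.29, adjusted p = 0.204). Of 7 MHC class II genes 6 were positive, with a median of 0.60, but with the B cell marker level as a covariate 7 of 7 were negative and the median was -0.13. Leaving out KO replicate 1 gave 0.32 and leaving out WT replicate 3 gave 0.34. Of 5 platelet genes 4 were positive (2 with the B cell covariate), 3 of 5 genes of CD4 and regulatory T cells were negative (1 without WT replicate 1), and the only NK cell gene tested differed by 0.41 with overlap. The scavenger receptor gene Cd36 differed by 1.61 and the Ly49 family gene Klra17 by 1.47. Cd36 and Klra17 were outside the lists and were named only for being among the largest higher differences. Two-sided exact permutation tests of the list means over arrays gave 0.1 for the erythroid, myeloid, dendritic and platelet lists, the smallest p that 3 against 3 arrays allow, 0.2 for the B cell list and 0.3 for the MHC class II list and the list of CD4 and regulatory T cells. Adjusted over 10 lists these were 0.167, 0.25 and 0.3. Apart from the covariate values given, the part of these markers in the differences of other genes was not tested.

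Genes of the T cells themselves had small negative differences in the same preparations. All 13 tested genes of T cell identity were negative, with a median of -0.23, and 4 lay lower without overlap (8.51% of all genes). Their mean was 13.11, 12.97 and 12.88 in WT and 12.75, 12.59 and 12.86 in KO (exact permutation p = 0.1, 0.167 adjusted over 10 lists). Cd3e, a chain of the T cell receptor complex that lies on chromosome 9, stood at 13.24, 13.43 and 13.07 in WT and at 12.45, 12.43 and 12.37 in KO (-0.83, SE 0.15, adjusted p = 0.185). Cd3g, also on chromosome 9, differed by -0.35, Cd28 by -0.33 and Cd2 by -0.23. Without the 4 chromosome 9 members the median was again -0.23. With the erythroid marker level as a covariate it was -0.03, with 8 of 13 negative, with the B cell marker level it was -0.36, and without WT replicate 1 it was -0.15.

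All 15 genes of the naive and quiescent state were negative and 8 lay lower without overlap (8.51% of all genes). The median was -0.17, with means of 13.18, 13.10 and 13.00 in WT and 12.92, 12.77 and 12.99 in KO. Ccr7, the homing receptor for lymph nodes, stood at 13.65, 13.28 and 13.39 in WT and at 12.98, 12.81 and 13.09 in KO (-0.48, SE 0.14, adjusted p = 0.368). The factors Klf2 and Foxo1, which maintain naive T cells, differed by -0.48 and -0.32, and S1pr1, the receptor for exit from lymphoid organs, by -0.38. None passed the test. With the erythroid covariate 9 of 15 were negative and the median was -0.09; without KO replicate 2 it was -0.11.

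Genes of memory and effector T cells showed no common direction, with 12 of 25 negative and 8 to 14 over the alternatives. Zeb2, a factor of effector differentiation that macrophages also express, stood at 7.55, 7.93 and 7.82 in WT and at 8.59, 8.42 and 8.39 in KO (0.70, SE 0.14, adjusted p = 0.205), and its other 4 probe sets were positive as well (0.41 to 0.72). Anxa2, a membrane-binding annexin on chromosome 9, differed by 0.90 (SE 0.18, adjusted p = 0.218). Gzmm, a granzyme gene, differed by -0.96 and the NK receptor gene Klrc1 by 0.68, both with overlap. Zbtb7b, the factor of CD4 lineage choice, differed by 1.19 on a dim probe set and by 0.06 on another, and Ikzf2, which regulatory T cells express, by 0.66 and 0.69 on its tested probe sets.

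Of 21 early activation genes 10 were negative, a count that ran from 5 with the erythroid covariate to 15 with the B cell covariate. The immediate early genes Fosb and Nr4a3 differed by 0.75 and 0.40 and the IL-2 receptor gene Il2ra by 0.39, all without overlap, while the phosphatase gene Dusp5 differed by -0.78. Il2ra gave -0.23 on its other probe set. Of 17 interferon response genes 14 were negative and 6 lay lower without overlap (8.51% of all genes). The median was -0.27, and it was -0.13 with the B cell marker covariate and -0.62 with the erythroid one. Rtp4 stood at 11.78, 11.96 and 11.52 in WT and at 10.86, 11.11 and 11.09 in KO (-0.73, SE 0.31, adjusted p = 0.498), Mx1 differed by -1.09, Ifit2 by -0.44 and Irgm1 by -0.27. The dimmer Rtp4 probe set gave 0.49, and the differences of the interferon genes ran from -1.09 to 1.21. The median of the interferon genes was -0.09 at T6.

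Cell cycle genes were all positive, 26 of 26, with a median of 0.64 and 4 higher without overlap (8.12% of all genes). Their mean was 9.97, 10.46 and 10.79 in WT and 11.07, 11.64 and 10.55 in KO (exact permutation p = 0.2, 0.25 adjusted over 10 lists), the same order of arrays within each group as the erythroid list. Ube2c, which acts in mitotic exit, stood at 9.93, 10.57 and 11.02 in WT and at 11.92, 12.58 and 10.77 in KO (1.25, SE 0.59, adjusted p = 0.539). Mcm3 of the replicative helicase differed by 0.43 and Tyms, thymidylate synthase, by 0.48. With the erythroid marker level as a covariate the median was -0.19 and 22 of 26 were negative, while with the B cell marker level it was 1.16. Without KO replicate 2 the median was 0.40, and without WT replicate 1 it was 0.41.

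**Figure D5:**
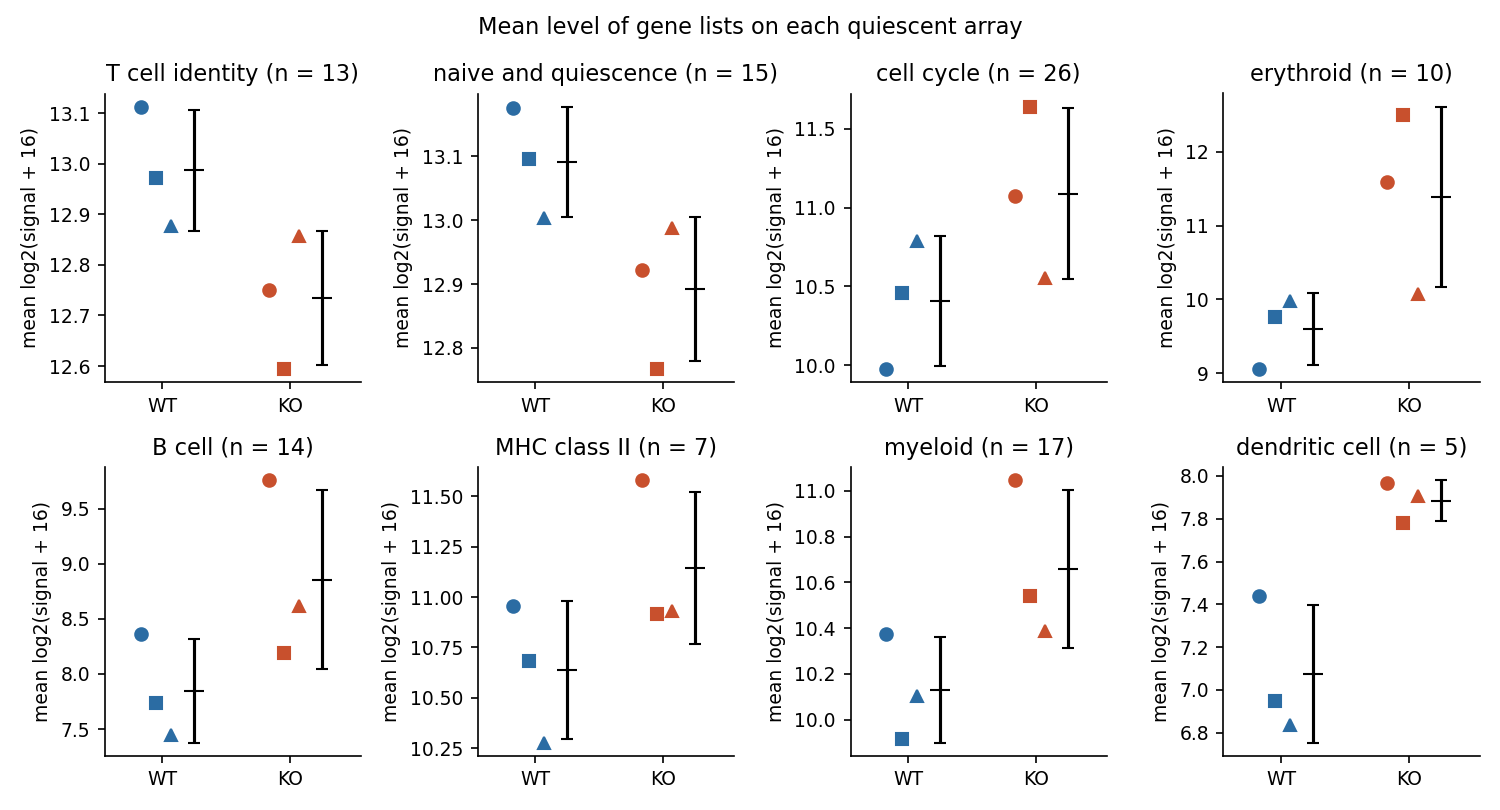
Mean level of 8 gene lists on each T0 array (vertical axes, mean log2 of signal + 16; axes do not start at 0), with the number of genes in each title. Points are arrays, with replicate 1 as circles, 2 as squares and 3 as triangles, and bars are the mean and SD of 3 arrays; KO replicate 2 is lowest in the T cell lists and highest in the cell cycle and erythroid lists, and KO replicate 1 is highest in the B cell, MHC class II and myeloid lists.

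The remaining lists lay near the median of all genes. Of 20 ribosome biogenesis genes 17 were negative but the median was -0.08, and -0.04 without WT replicate 3 or with the erythroid covariate, which left 11 negative. The RNA polymerase I subunit gene Polr1a differed by -0.46 and Wdr43 by -0.27. Of 12 glycolysis genes 6 were negative, with Pkm, pyruvate kinase on chromosome 9, at -0.52 and the glucose transporter gene Slc2a1 at -0.31. Of 15 genes of the endoplasmic reticulum stress response 10 were positive (median 0.14; 0.04 without KO replicate 3, 0.05 without WT replicate 2 and 0.24 without KO replicate 1), with Creld2 at 0.48, Sdf2l1 at 0.30, Manf at 0.24 and the chaperone gene Dnajb9 at -0.24. Of 9 BCL2 family genes 5 were positive, though 6 of 9 were negative with the B cell covariate, with the death-promoting Bbc3 at 0.49 and Bak1 at 0.23. None of these genes was called.

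Over all genes, 157 had an unadjusted p under 0.01, groups without overlap and a level above the median of the tested probe sets (8.31), 62 higher and 95 lower in KO. Of the 15 largest lower differences 11 were on chromosome 9, against 0 of the 15 largest higher ones. Chromosome 9 supplied Rps25, a ribosomal protein gene, at -1.46 (SE 0.26, adjusted p = 0.185), Parp3 at -1.27, the RNA helicase gene Ddx6 at -0.85 and the centriole gene Cep164 at -0.79, whose dimmer probe sets gave 0.26. Other Parp3 probe sets gave -0.59 and -0.51, and other Ddx6 probe sets gave -0.85, -0.37 and 0.26. Outside chromosome 9 the largest lower differences were those of Sqle, the ubiquitin ligase gene Trim13 (-0.96), the endonuclease subunit gene Eme2 (-0.89) and Baiap3 (-0.88). Among the 15 largest higher differences, those of genes in no marker list included the glycine transporter gene Slc6a9 (1.57), the palmitoyltransferase family gene Zdhhc12 (1.41), Eps8l1 (1.14) and Lpcat1, a lysophosphatidylcholine acyltransferase gene. Slc6a9 stood at 6.87, 7.08 and 7.17 in WT and at 8.73, 9.46 and 7.64 in KO. This was the order of arrays of the erythroid list within each group, and the other Slc6a9 probe set gave 0.72. Lpcat1 stood at 8.85, 8.81 and 8.91 in WT and at 9.95, 10.70 and 9.84 in KO (1.30, SE 0.28, adjusted p = 0.249), and its 3 other probe sets gave 0.59, 0.39 and 0.13.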

How the data were processed

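Gene expression was measured on 12 Affymetrix arrays of mouse splenic CD8 T cells, 4 groups of 3, of which this comparison uses 2. The deposited values are linear intensities, made by the authors with GCOS per the submitters' processing notes, with no version given. The mean intensity between percentiles 2 and 98 was 499.8 to 499.9 on every array, so the deposited table is scaled per array; background correction and probe summary are not given in the sources used here. Of 45101 probe sets, 64 were controls, 932 carried several gene symbols and 9160 none in the platform annotation; the 34945 with 1 symbol covered 18193 genes. Symbols were compared with RefSeq (GRCm38.p6) and 0 needed an update.

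Values were taken as log2(signal + 16). Probe sets above percentile 40 of their array on at least 3 of 12 arrays went into limma 3.58.1 (R 4.3.3), two-sided with lmFit and eBayes and 1 coefficient per group, with Benjamini-Hochberg adjustment over all 24543, called at an adjusted p under 0.05. SE is that of the fit, and SD is over 3 arrays. Whether replicates are separate mice is given by the series' design text (3 mice per genotype); which T0 and T6 arrays share a mouse is not. KO and WT arrays at T0 come from different mice, and the labels state no pairing between them. Same-numbered pairs correlated at 0.07, 0.04 and -0.14 after removal of group means, against -0.18 to 0.16 for the other pairs. With 3 arrays a group these values cannot decide whether the numbers pair the arrays, and the main fit used no pairing. The number of arrays limits the precision. Each list gene was described by the probe set brightest on average over the 12 arrays. Of 347 genes in 25 lists, 316 matched.

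The genes named are Scap, the called probe sets, the sterol and fatty acid lists, up to 4 members of each other list by smallest p, the 12 smallest p-values, and the 15 largest differences in each direction among genes with an unadjusted p under 0.01, no overlap and a level above the median; not every such gene is described. The comparison, the lists and the rule were chosen with earlier results of these data known. The test was checked on simulated data. Alternatives covered the added constant, the filter, probe set choice, scaling, arrays fitted, replicate block, variance model, marker covariates and each array left out; leaving out chromosome 9 and adding the unnamed probe sets were chosen after seeing the data.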

Additional observations from a re-analysis of the deposited data

Results flagged for a closer look

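A signal appeared among the 5540 probe sets with no gene symbol or several symbols that passed the signal filter, which the comparisons above do not use. When they were fitted along with the named ones (30083 probe sets), limma called 5, of which 1 was unnamed. This probe set, which has no gene symbol, stood at 6.43, 6.24 and 5.99 in WT and at 4.18, 4.08 and 4.13 in KO, a difference of -2.09 (SE 0.18, adjusted p = 0.00367). Its KO values lay below percentile 40 of the arrays, and its gene was not named here.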

How the results depend on the processing

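The count of 4 called probe sets (4 lower, 0 higher) changed with the processing, and the cause was not tested unless a setting's construction shows it. It was 2 (2 lower) with a constant of 1 and 14 (12 lower, 2 higher) with 64, 15 (14 lower, 1 higher) with a percentile 60 filter, which tests fewer probe sets, 8 (8 lower) after quantile normalization, 17 (17 lower) with a mean-variance trend and robust eBayes, 1 (1 lower) with the erythroid covariate, and 0 with the 6 arrays at T0 alone, which leave fewer samples, or without chromosome 9. With a replicate block over the 12 arrays, limma called 6, of which 5 were lower and 1, Blnk, higher; with the block over the 6 arrays at T0 it called 0. Leaving out each array in turn gave 2 to 15 called (2 to 10 lower, 0 to 5 higher), with the 15 without WT T0 replicate 2, and the interaction gave 0 to 2, with 2 without KO T0 replicate 2 and 1 without KO T6 replicate 2. Of 121 probe sets named, 105 kept their direction in all alternatives run; over all their values, a call was gained 45 times and lost 35 times. Turned values, all small, came with the B cell covariate (dimmer Scap probe set 0.18, Mbtps2 -0.043, Insig2 0.026, Nsdhl 0.068, Lbr 0.14, Lipa -0.0059), the erythroid covariate (Ggps1 0.095, Pmvk -0.13, Npc1 0.016, Tmem97 -0.0098, Fasn 0.065, Ube2c -0.021) and quantile normalization (Lbr 0.025). With single arrays left out, values of both signs spanned -0.25 to 0.087 for the dimmer Scap probe set, -0.34 to 0.086 for Mvk, -0.053 to 0.33 for Pmvk, -0.32 to 0.015 for Lss, -0.096 to 0.027 for Ebp, -0.12 to 0.048 for Nsdhl, -0.058 to 0.063 for Lbr, -0.25 to 0.024 for Stard4 and -0.18 to 0.35 for Tmem97. The median of the 33 sterol genes stayed between -0.30 and -0.18. Signals near the floor, such as those of Bace1 in KO, limit the sizes: over the alternatives Bace1 ranged from -3.51 to -2.43.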
